A study of Mus musculus with 108 samples.

Results

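The genes described here encode 8 receptors or receptor subunits for acetylcholine. They are the muscarinic receptors Chrm1, Chrm2, Chrm3 and Chrm4 and the nicotinic subunits Chrna4, Chrna5, Chrna7 and Chrnb2. They were taken by symbol from the table of the whole series, where they are 8 of 23337 genes, and all 8 had reads. Mouse hippocampal tissue was sequenced on 5 days after birth (P0, P7, P14, P21, P28) in 3 libraries each. Single neurons of 5 labelled types, recorded for their firing, were taken in postnatal weeks 3 to 4. CA1 gave 14 PV cells (parvalbumin interneurons, fast-spiking), 19 CCK cells (cholecystokinin interneurons, regular-spiking) and 25 pyramidal cells. The subiculum gave 21 pyramidal cells that fired bursts and 14 that fired regularly, here called burst and regular cells. No genotype, agent, strain or animal is named for any library.

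Acetylcholine reaches the hippocampus mainly along axons from the medial septum and diagonal band. Muscarinic receptors act through G proteins. Chrm1 and Chrm3 encode the M1 and M3 receptors, which couple to Gq, activate phospholipase C and close the potassium channels of the M-current. Chrm2 and Chrm4 encode the M2 and M4 receptors, which couple to Gi/o proteins, lower cyclic AMP and open GIRK potassium channels. Nicotinic receptors are cation channels built from several subunits. Chrna4 and Chrnb2 encode the α4 and β2 subunits of the common high-affinity receptor of the brain, Chrna5 encodes the accessory α5 subunit that joins it, and Chrna7 encodes the α7 subunit, which forms homomeric receptors with high calcium permeability.

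In tissue the 4 muscarinic genes of this set shared one direction and its nicotinic genes did not. All 4 rose between birth and P28, and no step after P14 was called. The muscarinic gene Chrm5, outside the set, was lower at P28, at a mean of 4.56 CPM against 8.88 CPM at P0. Chrna4 peaked at P7, Chrna5 fell after P7, and Chrna7 and Chrnb2 ended at P28 within the spread of P0. In single cells Chrm1 was found in most pyramidal cells, Chrm2 reads were highest in PV cells, and Chrna4 and Chrnb2 were found in more pyramidal cells of the subiculum than of CA1, where the cDNA kit differed as well.

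The sequences upstream of 4 of these genes are shown because the genes moved differently with age. Chrm4 and Chrm3 rose, Chrna4 peaked early and Chrna5 fell. Each is the 250 bases before an annotated transcription start in RefSeq on GRCm38.p6, written 5′ to 3′ on the strand of the gene. Capitals mark every match to a GC box, GGGCGG, on either strand, where overlapping matches run together.
Chrm4, chr2:91921939-91922188, plus strand: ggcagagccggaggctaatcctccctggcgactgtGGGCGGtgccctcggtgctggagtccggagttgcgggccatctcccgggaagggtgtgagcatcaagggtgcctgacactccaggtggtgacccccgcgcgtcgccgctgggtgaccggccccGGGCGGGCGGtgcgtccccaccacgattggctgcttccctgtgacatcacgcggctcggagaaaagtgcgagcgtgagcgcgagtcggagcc
Chrm3, chr13:10360804-10361053, minus strand: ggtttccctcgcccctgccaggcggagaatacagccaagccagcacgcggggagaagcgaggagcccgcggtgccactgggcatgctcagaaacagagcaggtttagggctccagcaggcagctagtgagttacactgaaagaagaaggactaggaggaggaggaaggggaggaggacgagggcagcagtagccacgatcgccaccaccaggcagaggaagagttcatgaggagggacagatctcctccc
Chrna4, chr2:181039178-181039427, minus strand: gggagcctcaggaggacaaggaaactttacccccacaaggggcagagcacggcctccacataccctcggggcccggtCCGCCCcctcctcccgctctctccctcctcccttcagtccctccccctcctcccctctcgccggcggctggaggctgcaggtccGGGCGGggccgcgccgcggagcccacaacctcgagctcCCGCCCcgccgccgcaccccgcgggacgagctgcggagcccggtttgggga
Chrna5, chr9:54981238-54981487, plus strand: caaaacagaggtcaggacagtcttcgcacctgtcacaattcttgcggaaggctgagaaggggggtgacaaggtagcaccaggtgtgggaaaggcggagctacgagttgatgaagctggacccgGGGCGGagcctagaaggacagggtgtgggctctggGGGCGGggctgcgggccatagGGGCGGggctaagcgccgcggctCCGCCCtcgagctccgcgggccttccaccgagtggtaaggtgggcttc

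Promoter windows were found for 7 of the 8 genes, with a pair of starts for Chrna5. The windows of Chrm4 and Chrna4 held 3 GC boxes each, the Chrna5 window printed above held 4, and those of Chrm2 and Chrna7 held 1 each. No match was found in Chrm3, in Chrnb2 or at the other Chrna5 start. Of 32851 mouse promoters of the same length, 32.7% held a GC box. The letters TATAAA were in 12.4% of all promoters on either strand and in none of these windows. Base composition also differed, with 70.0% G and C in the Chrm4 window, 74.4% in Chrna4, 61.2% in Chrm3 and 65.2% in the printed Chrna5 window. Chrna7 had 67.2%, Chrnb2 59.6%, Chrm2 50% and the other Chrna5 start 40%, against a median of 52.4% over all promoters. GC boxes were thus found at some genes that rose and at the printed start of Chrna5, which fell. They were missing from Chrm3, which rose, and from the other Chrna5 start. The matches are a description of letters only.

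Gene reads numbered 2341677 to 13262818 per piece of tissue and 30025 to 11694081 per cell. Levels are given as CPM, the reads of a gene scaled to 1000000 gene reads per library, with TMM factors between tissue libraries. A tissue gene was called when its p from edgeR's quasi-likelihood test, adjusted over the 14737 genes tested, was under 0.05. Markers of cell types moved strongly with age as well. The summed level of 5 oligodendrocyte markers was 7687 to 10249 CPM at P28, against 43.6 to 58.4 CPM at P0, and that of 5 immature-neuron markers 62.3 to 76.6 CPM at P28, against 1806 to 2153 CPM at P0. The summed level of 4 glutamatergic markers was 2402 to 2579 CPM at P28, against 899 to 924 CPM at P0, but its members were split. Slc17a7 rose from a mean of 252.5 CPM at P0 to 1570.1 CPM at P28, and Camk2a from 63.96 to 621.1 CPM. Neurod6 fell from 471.6 to 222.7 CPM, and Neurod2 was lower in mean at P28 with overlapping libraries. The summed level of 3 GABAergic markers was 779.8 to 882 CPM at P28, against 262 to 324 CPM at P0. The part of this shift in the receptor changes was not tested, and in tissue more cells of a type and more RNA per cell cannot be told apart.

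Over the 5 ages 7 of the 8 receptor genes were called, with Chrnb2 the exception, where 76.4% of all genes tested were called. Between P28 and P0 5 receptor genes rose and 1 fell. Over all genes tested 64.2% were called in that comparison, 32.9% higher and 31.3% lower. The libraries of P28 and P0 did not overlap for 6 receptor genes and for 68.6% of all genes. The median log2 fold change of the 8 genes was 0.91, beside 0.00 over all genes tested.

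**Figure D1:**
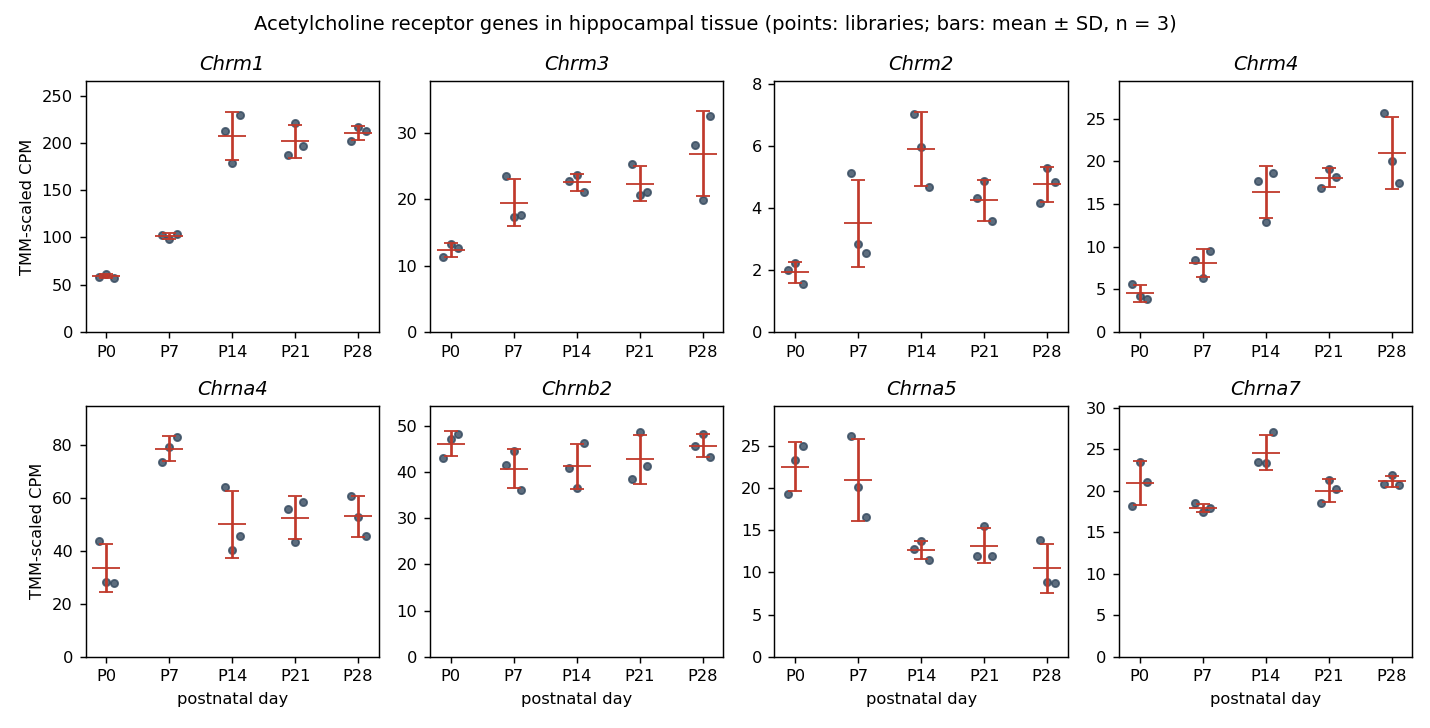
TMM-scaled CPM (vertical axis, linear from 0) of each receptor gene in the 15 tissue libraries by postnatal day (horizontal axis); points are libraries and red bars the mean ± SD of 3. Chrm1 and Chrm4 climb to P14 and stay there, Chrna4 stands highest at P7, Chrna5 falls after P7, and Chrnb2 stays between 36.2 and 48.7 CPM.

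Chrm1 (chromosome 19, 8663789 to 8683587, plus strand, GRCm38) rose in a pair of steps. It had 58.1, 61.5 and 57.4 CPM at P0, 102.3, 98.6 and 103.97 CPM at P7, 212.6, 179 and 229.1 CPM at P14, 187, 221 and 196 CPM at P21, and 201.99, 216.8 and 212.03 CPM at P28. The libraries of P7 all lay above those of P0 and the libraries of P14 all above those of P7, while P14, P21 and P28 overlapped. Chrm1 rose at both early steps, by 0.78 at P7 against P0 (SE 0.10, adjusted p = 4.75e-06) and by 1.03 at P14 against P7 (SE 0.09, adjusted p = 3.85e-08) on the log2 scale. The whole change from birth, P28 against P0, was a log2 fold change of 1.83 (SE 0.10, adjusted p = 3.34e-12).

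Chrm3 (chromosome 13, 9875486 to 10360847, minus strand) encodes the other Gq-coupled receptor. Its CPM were 11.3, 13.3 and 12.7 at P0, 23.6, 17.3 and 17.7 at P7, 22.9, 23.7 and 21.16 at P14, 25.4, 20.6 and 21.14 at P21, and 28.26, 19.9 and 32.5 at P28. Every later library lay above every P0 library, and all neighbouring ages after P7 overlapped. Chrm3 rose between P0 and P7 (log2 fold change 0.61, SE 0.18, adjusted p = 0.0137), a call lost when replicate 1 of P7 was left out (adjusted p = 0.0728). It ended higher at P28 than at P0 by a log2 fold change of 1.09 (SE 0.17, adjusted p = 2.04e-05).

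Chrm4 (chromosome 2, 91927249 to 91928688, plus strand), an M4 receptor of the Gi/o class, had the largest fold change of the 8. It had 5.64, 4.18 and 3.83 CPM at P0, 8.46, 6.30 and 9.54 CPM at P7, 17.7, 12.9 and 18.6 CPM at P14, 16.9, 19.1 and 18.2 CPM at P21, and 25.6, 19.996 and 17.4 CPM at P28. The groups were separate up to P14 and overlapped from there on. The rise was 0.95 on the log2 scale at P7 against P0 (SE 0.23, adjusted p = 0.00318), 1.02 at P14 against P7 (SE 0.20, adjusted p = 3.94e-04) and 2.29 at P28 against P0 (SE 0.21, adjusted p = 1.34e-08).

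Chrm2 (chromosome 6, 36388084 to 36528414, plus strand) encodes the other Gi/o-coupled receptor. Its CPM were 2.02, 2.23 and 1.55 at P0, 5.13, 2.85 and 2.55 at P7, 7.05, 5.99 and 4.69 at P14, 4.32, 4.89 and 3.57 at P21, and 4.16, 5.29 and 4.85 at P28. The smallest library held 5 reads of it, so single steps are imprecise. The P28 libraries lay above the P0 libraries (log2 fold change 1.33, SE 0.30, adjusted p = 6.67e-04). The step from P0 to P7 was not called (0.80, adjusted p = 0.0604), but it was after thinning to equal depth (1.33, adjusted p = 0.0317) and without replicate 3 of P7 (1.03, adjusted p = 0.0379). P14 was higher than P7 (0.83, SE 0.29, adjusted p = 0.0251), and that call was lost without replicate 2 or 3 of P7 or replicate 1 of P14, at adjusted p of 0.0892, 0.166 and 0.123.

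Chrna4 (chromosome 2, 181018380 to 181043546, minus strand) was the nicotinic gene with an early peak. It had 43.9, 28.4 and 28.0 CPM at P0, 73.8, 79.5 and 83.003 CPM at P7, 64.3, 40.4 and 45.6 CPM at P14, 55.7, 43.5 and 58.6 CPM at P21, and 60.8, 52.9 and 45.6 CPM at P28. Every P7 library stood above every library of the other ages, and P14, P21 and P28 overlapped. Chrna4 rose by 1.32 on the log2 scale at P7 against P0 (SE 0.18, adjusted p = 1.65e-05) and fell by 0.64 at P14 against P7 (SE 0.17, adjusted p = 0.00541). At P28 it was still above P0, by 0.74 (SE 0.18, adjusted p = 0.00146).

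Chrna5 (chromosome 9, 54980880 to 55007779, plus strand) was the only one of the 8 that was called lower at P28 than at P0. Its CPM were 19.4, 23.3 and 25.007 at P0, 26.1, 20.1 and 16.6 at P7, 12.7, 13.8 and 11.5 at P14, 11.965, 15.5 and 11.967 at P21, and 13.9, 8.84 and 8.78 at P28. P0 and P7 overlapped with each other and lay above all later libraries. At P14 against P7 Chrna5 fell by 0.71 in log2 units (SE 0.20, adjusted p = 0.00736, and 0.053 without replicate 1 of P7) and by 1.16 at P28 against P0 (SE 0.20, adjusted p = 4.04e-05).

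Chrna7 (chromosome 7, 63098692 to 63212569, minus strand) ended close to where it began. It had 18.1, 23.4 and 21.097 CPM at P0, 18.5, 17.5 and 17.9 CPM at P7, 23.4, 23.3 and 27.0 CPM at P14, 18.5, 21.24 and 20.2 CPM at P21, and 20.8, 21.9 and 20.7 CPM at P28. P14 was higher than P7 (log2 fold change 0.46, SE 0.13, adjusted p = 0.00688), and P28 against P0 gave −0.01 (SE 0.12, adjusted p = 0.951). Its call over the 5 ages (adjusted p = 0.0361) was lost when any of 6 single libraries was left out, at adjusted p of 0.0534 to 0.162, including each of the P7 libraries.

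Chrnb2 (chromosome 3, 89746195 to 89764632, minus strand), the partner of Chrna4, was not called over the ages (adjusted p = 0.421) or in any of the 5 comparisons of ages. Its library values were 43.1, 47.1 and 48.2 CPM at P0, 41.5, 44.5 and 36.2 CPM at P7, 41.0, 36.6 and 46.3 CPM at P14, 38.4, 48.7 and 41.3 CPM at P21, and 45.7, 48.3 and 43.3 CPM at P28. All neighbouring ages in order of level overlapped, and the difference of P28 over P0 was −0.02 on the log2 scale (SE 0.12). In the annotation 1365 bases, or 16.3% of its exons, overlap exons of Adar on the opposite strand, and the sources used here do not say that counting used the strand.

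**Figure D2:**
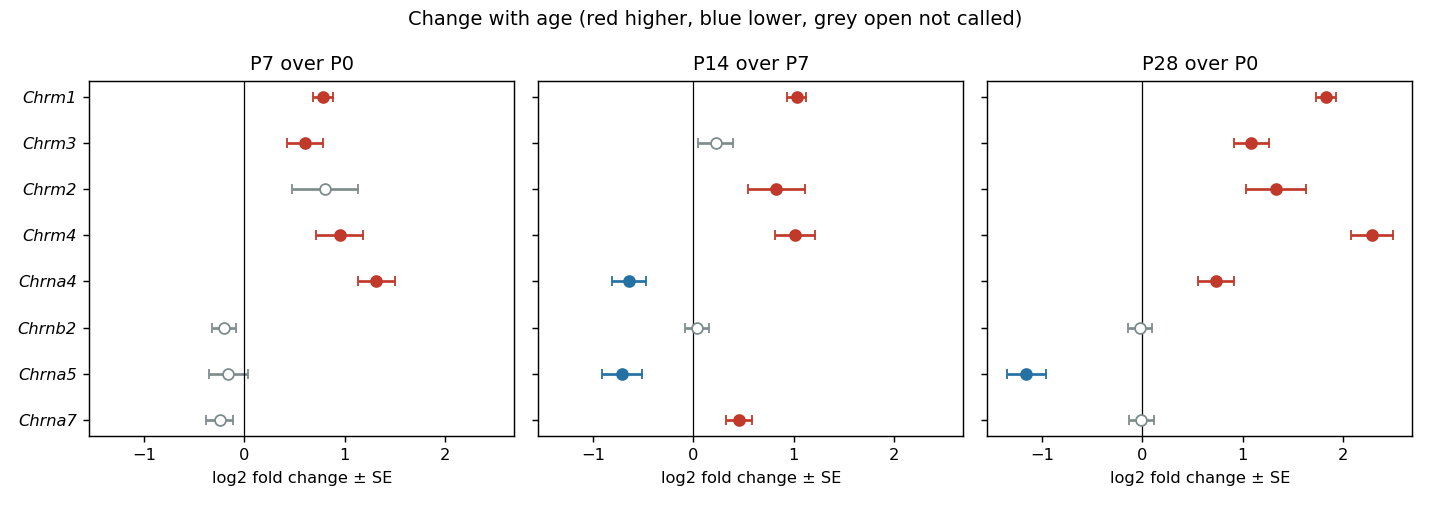
Log2 fold change ± SE (horizontal axis) of each receptor gene (vertical axis) for P7 over P0, P14 over P7 and P28 over P0. Red points were called higher, blue points lower and open grey points were not called. Chrna4 is at 1.32 for P7 over P0 and at −0.64 for P14 over P7.

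By step, 4 receptor genes were called at P7 against P0, all higher, where 38.8% of all genes tested were called, 21.0% higher and 17.8% lower. Libraries of P7 and P0 did not overlap for 5 receptor genes and 49.7% of all genes. At P14 against P7 4 were higher and 2 lower, where 42.2% of all genes were called, 21.7% higher and 20.5% lower, and libraries did not overlap for 5 receptor genes and 48.8% of all genes. No receptor gene was called at P21 against P14 or at P28 against P21 with edgeR's quasi-likelihood test or with DESeq2. With edgeR 20.5% of all genes were called at P21 against P14, 9.93% higher and 10.6% lower, and libraries did not overlap for 1 receptor gene and 35.9% of all genes. At P28 against P21 7.83% were called, 4.49% higher and 3.34% lower, and libraries did not overlap for 0 receptor genes and 29.4% of all genes. At an unadjusted p under 0.05, 1 receptor gene passed at P21 against P14 with either tool and 0 at P28 against P21. That gene was Chrna7, with an adjusted p of 0.0834, and it was called lower at P21 with libraries thinned to equal depth (log2 fold change −0.75, adjusted p = 0.0185).

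Levels of different genes were compared per kilobase of annotated exon. At P28 Chrm1 had 32.4 ± 1.17 CPM per kilobase, Chrna4 10.6 ± 1.51, Chrnb2 5.46 ± 0.296, Chrna7 4.69 ± 0.147, Chrm3 4.30 ± 1.03, Chrna5 3.36 ± 0.931 and Chrm2 0.787 ± 0.0943 (SD, n = 3). Chrna7 and Chrm3, and Chrm3 and Chrna5, differed by less than the larger of their SDs, and the other neighbours in this order by more. At P0 Chrm1 had 9.09 ± 0.339, Chrna5 7.22 ± 0.929, Chrna4 6.66 ± 1.81, Chrnb2 5.51 ± 0.319, Chrna7 4.64 ± 0.586, Chrm3 1.99 ± 0.164 and Chrm2 0.319 ± 0.0576 CPM per kilobase. Chrna5 thus stood second at birth, within an SD of Chrna4, and above Chrm2 alone at P28. At P7 Chrm1 and Chrna4 were level, at 15.7 ± 0.423 and 15.7 ± 0.923 CPM per kilobase. Chrm2 was lowest of these 7 genes at every age. Chrm4 was left out because its annotated 1.44 kilobases are a single exon that starts downstream of the RefSeq transcription start.

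The genes whose levels ran most like those of a receptor over the 15 tissue libraries were looked up among 11817 genes of at least 5 CPM. Pearson's r of log2 CPM was 0.995 for Baiap2 with Chrm1, 0.974 for Hspa2 with Chrm4, 0.941 for Klhl8 with Chrna5, 0.936 for Unc13c with Chrna4, 0.934 for Fn3k with Chrm2, 0.933 for Trmt2b with Chrm3, 0.881 for Zfp385b with Chrna7 and 0.763 for Mprip with Chrnb2. The next in line were Cbx6 with Chrm1 (0.995), Ankrd40 with Chrm4 (0.973), Rnf138 with Chrna5 (0.933), Blnk with Chrm2 (0.926), Nebl with Chrm3 (0.925), D630023F18Rik with Chrna4 (0.919), Btbd9 with Chrna7 (0.851) and Mfhas1 with Chrnb2 (0.751). Among the receptors Chrm1 and Chrm4 ran closest (r = 0.966), and Chrm1 and Chrna5 ran in opposite directions (r = −0.84). Libraries of one age share that age, so these values mostly describe shared courses over 5 ages.

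Of 43 other genes of cholinergic signalling 33 had enough reads to test, and 15 were higher and 7 lower at P28 than at P0, with a median log2 fold change of 0.64. Beside them stand the 64.2% of all genes tested that were called in this comparison, 32.9% higher and 31.3% lower, and the same shares stand beside the list counts further on. Among genes that averaged at least 5 CPM at some age, the largest rises were those of Lynx1 and of GIRK channel subunits. Lynx1, a membrane-anchored protein that binds nicotinic receptors and dampens their response, had 591, 524 and 604 CPM at P28, against 24.2, 34.3 and 22.8 CPM at P0 (log2 fold change 4.38, SE 0.14, adjusted p = 2.13e-15). Kcnj9 rose by 3.24 (SE 0.17, adjusted p = 3.68e-12) and Kcnj6 by 2.31 (SE 0.22, adjusted p = 1.42e-08), both subunits of the GIRK channels that Gi/o-coupled receptors open.

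The largest falls were those of Chrna3, Gnai3 and Lypd6b. Chrna3, the nicotinic α3 subunit, had 0.554, 0.744 and 0.693 CPM at P28, against 4.43, 4.18 and 3.99 CPM at P0, and its log2 fold change was −2.59 (SE 0.38, adjusted p = 5.92e-06). It lies 2331 bases from Chrna5 on chromosome 9 (55010111 to 55026562, minus strand), so that the neighbouring subunit genes both fell. Chrnb4 on its other side was not called (0.64, adjusted p = 0.511). With means of 0.353 CPM at P0 and 0.738 CPM at P28, Chrnb4 had too few reads to say whether it differed from them. Gnai3, a Gi α subunit, fell by 1.91 (SE 0.10, adjusted p = 1.33e-12), and Lypd6b, a relative of Lynx1, fell by 1.53 (SE 0.18, adjusted p = 4.53e-07).

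By list, 4 of 7 genes of the Gq pathway and the M-current were higher and 1 was lower. The 4 were Kcnq3, Kcnq5, Plcb1 and Prkca, at log2 fold changes of 1.18 to 1.47, and the G protein gene Gnaq was lower (−0.39, adjusted p = 0.0055). Of 7 genes of the Gi pathway and GIRK channels 3 were higher, all channel subunits, and 1 was lower. Of 8 tested chaperones and Ly6 proteins 4 were higher and 3 lower. Of 5 tested genes of synthesis, transport and breakdown 3 were higher, among them Ache, the enzyme that hydrolyses acetylcholine (1.09, SE 0.13, adjusted p = 6.24e-07), and none was lower. Chat, the synthetic enzyme, did not have enough reads to test. Of 6 other receptor genes tested Chrna2 was higher, and Chrna3 and the muscarinic gene Chrm5 were lower. Chrm5 averaged 8.88 CPM at P0 and 4.56 CPM at P28. Chrna2 had few reads, with means of 0.260 CPM at P0 and 1.57 CPM at P28. Genes named in this paragraph were chosen after their values were seen.

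**Figure D3:**
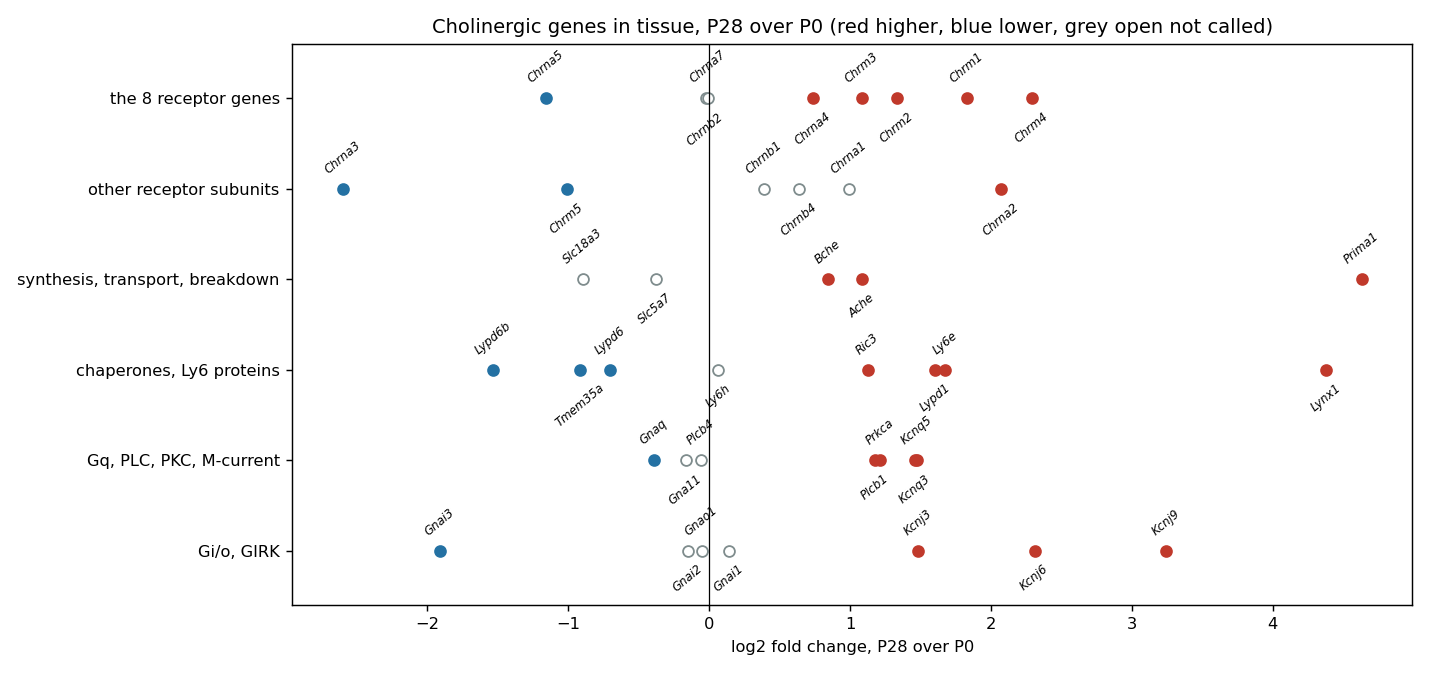
Log2 fold change of P28 over P0 in tissue (horizontal axis) for the 8 receptor genes and the tested genes of 5 other cholinergic lists (vertical axis). Red points were called higher, blue lower and open grey not called; Lynx1 at 4.38 and Kcnj9 at 3.24 stand far to the right and Chrna3 at −2.59 far to the left.

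In single cells the labels name no animal, so each cell type counts as 1 sample and no test was made. For each type the reads of its cells were added up, and ratios of summed CPM have an exact 95% interval that covers counting error only. A gene was counted as 2-fold apart where it had at least 1 CPM in one of the types, the ratio was at least 2 either way and the interval left out 1. Few cells carried most of the reads of several genes, and the cell with the most reads of a gene in its type is called its top cell. For this reason the number of cells with a read is given with each level. Median genes detected per cell were 4511 in PV, 6085 in CCK, 2784 in CA1 pyramidal, 9860 in burst and 9703.5 in regular cells. Reads of 3 GABAergic markers summed to 4557 CPM in PV, 3023 CPM in CCK, 9.35 CPM in CA1 pyramidal, 52.4 CPM in burst and 84.9 CPM in regular cells. Reads of 4 glutamatergic markers summed to 224.5, 89.9, 1720, 2087 and 2785 CPM in the same order. Reads of 5 PV-interneuron markers summed to 904 CPM in PV and 145 CPM in CCK cells. Those of 6 CCK-interneuron markers summed to 7718 CPM in CCK cells, but also to 2167 CPM in PV cells. The median PV cell had 166 CPM of the CCK-interneuron markers and the highest 15946 CPM, so the labels of PV cells are not fully borne out by markers. Also, 6 PV cells had no Pvalb read, 3 CCK cells no read of the GABAergic markers and 3 CA1 pyramidal cells no read of the glutamatergic markers.

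**Figure D4:**
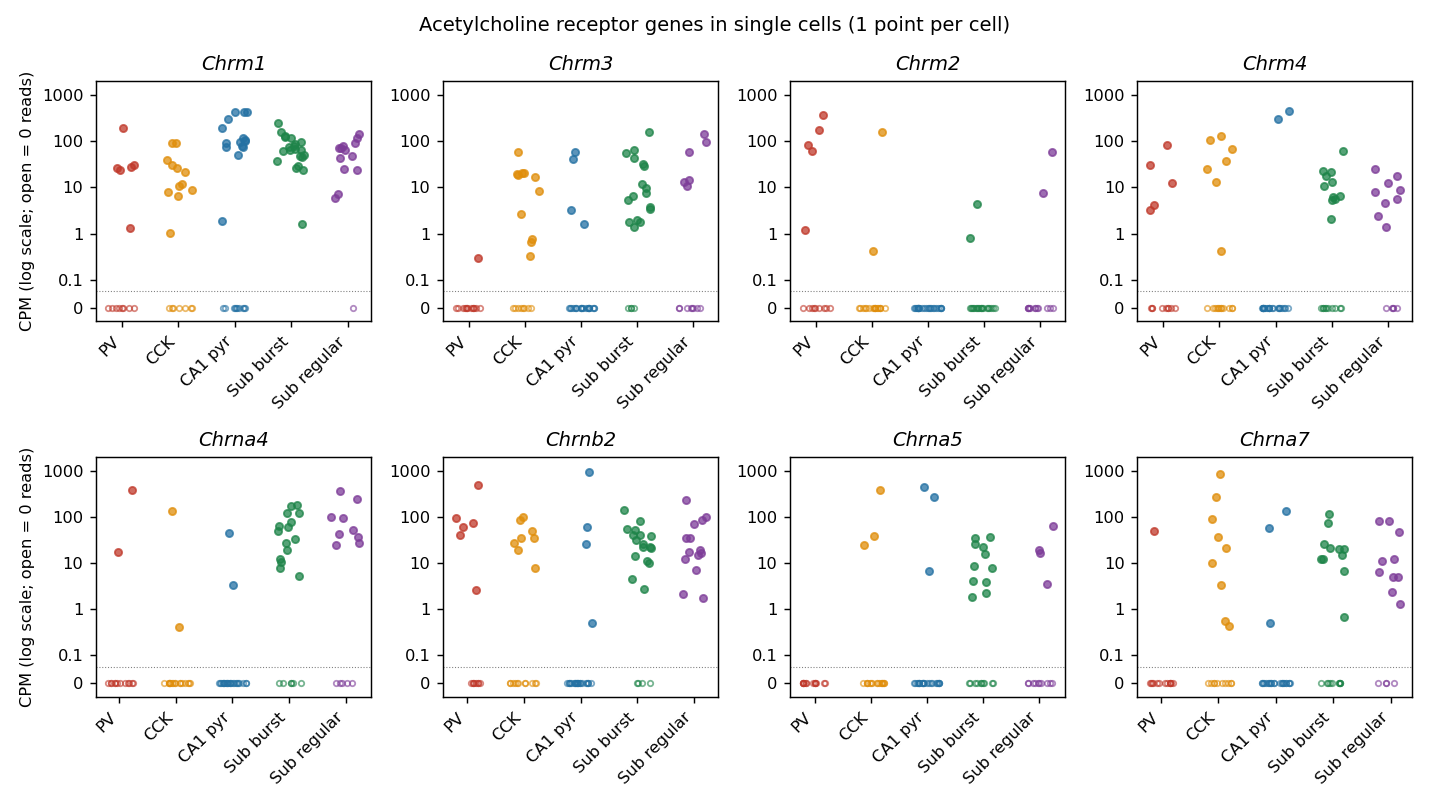
CPM of each receptor gene in each of 93 cells (vertical axis, log scale, with cells without a read as open points at 0) by cell type (horizontal axis). Chrm1 is found in most pyramidal cells, Chrm2 in 5 PV cells and in 0 CA1 pyramidal cells, and Chrna4 and Chrnb2 in most subiculum cells.

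Chrm1 was the receptor gene found in most cells. It had a read in 6 of 14 PV, 12 of 19 CCK and 15 of 25 CA1 pyramidal cells, and in 21 of 21 burst and 13 of 14 regular cells. Median levels per cell were 0 CPM in PV, 7.79 CPM in CCK, 74.7 CPM in CA1 pyramidal, 64.1 CPM in burst and 54.7 CPM in regular cells, and the highest cells had 189, 92.03, 434, 242.4 and 141 CPM in the same order. The interneurons were thus below the pyramidal cells at the median, with overlap at the top.

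Summed over cells, CCK interneurons had 15.7 CPM of Chrm1, against 103.9 CPM in CA1 pyramidal cells, a ratio of 0.151 (interval 0.141 to 0.162). PV cells had 32.5 CPM, a ratio of 0.312 to CA1 pyramidal cells (0.291 to 0.335). Both ratios stayed below 1 under every alternative tried, but among cells without spike-in sequences PV over CA1 pyramidal was −0.22 on the log2 scale, against −1.68 in all cells. Spike-ins were found in 9 of 14 PV, 6 of 19 CCK and 9 of 25 CA1 pyramidal cells. PV over CCK was 2.07 (1.89 to 2.26), but a PV cell without a Pvalb read held 64.9% of the PV reads. Without the top cell of each type the log2 ratio was 0.06, against 1.05 with all cells.

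Chrm3 was lower in PV than in CCK interneurons. It was found in 1 of 14 PV cells, by a single read, against 11 of 19 CCK cells. Its summed level was 0.0328 CPM in PV and 5.65 CPM in CCK cells, a ratio of 0.0058 (interval 1.46e-04 to 0.0325). After each cell was thinned to 200000 reads, 0 of 13 PV cells and 8 of 19 CCK cells held a read. The log2 ratio, −7.43 in all cells, was then at most −2.82. Among cells with spike-ins no PV cell had a read, and the log2 ratio was at most −2.63. CA1 pyramidal cells had 7.04 CPM in 4 of 25 cells, burst cells 16.2 CPM in 17 of 21 and regular cells 20.04 CPM in 6 of 14. In summed level PV cells were also lower than CA1 pyramidal cells (ratio 0.00466, interval 1.17e-04 to 0.0262), or −7.75 on the log2 scale. The CA1 pyramidal reads came mainly from the cells at 41.9 and 56.9 CPM. This log2 ratio was at most −4.97 without the top cell of each type and at most −1.76 after thinning. Among cells with spike-ins it was at most −0.14. Of the 14 PV cells 6 had no read of any of the 8 genes, so the size of this difference is not settled.

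Chrm2 reads were found mainly in PV cells. It was present in 5 of 14 PV cells at 1.19 to 375 CPM, in 2 of 19 CCK cells, in 0 of 25 CA1 pyramidal cells, in 2 of 21 burst cells and in 2 of 14 regular cells. The 0 of 25 allows a share of up to 13.7% of cells with a read (exact binomial 95% interval, counting error only). It is no limit on cells that express the gene, since 6 of these 25 cells had no read of any of the 8 genes. Summed levels were 61.2 CPM in PV cells and 7.12 CPM in CCK cells, a ratio of 8.59 (interval 7.77 to 9.53). A single CCK cell carried 98.9% of the CCK reads, and the log2 ratio was 0.86 among cells without spike-ins and 8.63 without the top cell of each type, against 3.10 in all cells. Against CA1 pyramidal cells, taken at a limit of 3 reads over the type, PV cells were at least 643-fold higher. On the log2 scale this bound was 9.33, and it was 8.36 without the top PV cell, 7.34 among cells with spike-ins, 7.65 among cells without them and 6.27 after thinning. In the subiculum burst cells had 5 reads (0.229 CPM) and regular cells 82 reads (4.96 CPM), a ratio of 0.0462 (0.0146 to 0.112) that rests on 2 cells of each type.

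Chrm4 was spread thinly over all types. It was found in 5 of 14 PV, 7 of 19 CCK, 2 of 25 CA1 pyramidal, 11 of 21 burst and 9 of 14 regular cells. Summed levels were 19.8 CPM in PV cells, 15.6 CPM in CCK cells, 37.4 CPM in CA1 pyramidal cells, 8.34 CPM in burst cells and 6.42 CPM in regular cells. The summed level of CA1 pyramidal cells came from the 303 and 444 CPM of its 2 positive cells, and without the top cell of each type the log2 ratio of CA1 pyramidal to subiculum cells was 0.52, against 2.32 with all cells. CCK over CA1 pyramidal cells was 0.416 (interval 0.382 to 0.453), or −1.26 on the log2 scale, and −0.31 without the top cell of each type. The share of cells put CA1 pyramidal cells last of the 5 types, while the summed level put them first.

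**Figure D5:**
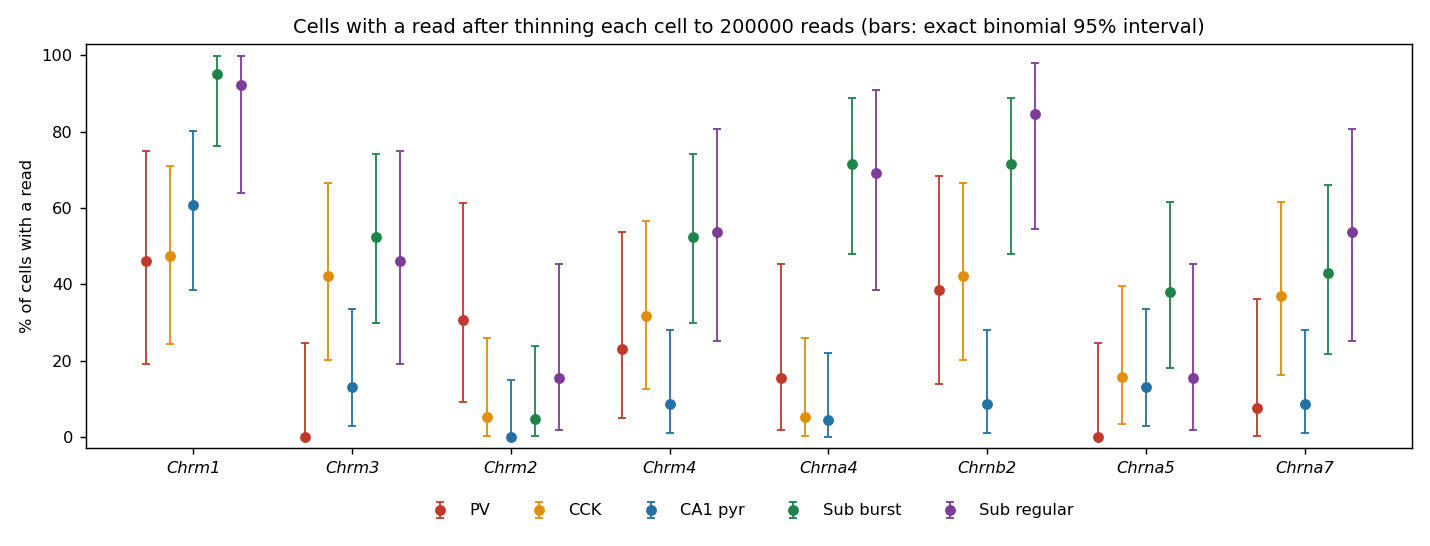
Share of cells with at least 1 read (vertical axis, percent) for each receptor gene (horizontal axis) in the 5 cell types after each cell was thinned to 200000 reads; bars are exact binomial 95% intervals, which cover counting error over the cells of 1 sample per type. Chrna4 and Chrnb2 are found in 71.4% of burst cells each, and Chrna4 in 4.35% of CA1 pyramidal cells.

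Chrna4 and Chrnb2 were lower in CA1 pyramidal cells than in pyramidal cells of the subiculum. Chrna4 was found in 2 of 25 CA1 pyramidal cells, with 10 reads in all, against 15 of 21 burst and 9 of 14 regular cells. Summed over CA1 pyramidal cells it had 0.317 CPM, against 57.1 CPM over all subiculum cells, a ratio of 0.00555 (interval 0.00266 to 0.0102). Its log2 ratio was −7.49, against −4.84 after thinning. Chrnb2 was found in 4 of 25 CA1 pyramidal cells, against 17 of 21 burst and 14 of 14 regular cells. Its ratio was 0.123 (0.101 to 0.149), with 3.71 CPM in CA1 pyramidal and 30.1 CPM in subiculum cells. The log2 ratio of summed reads was −3.02, and −3.38 without cells under 1000 detected genes. With equal weight per cell it turned to 0.17, with 933 CPM in 1 CA1 pyramidal cell of 30025 reads. Both genes together were found in 0 of 25 CA1 pyramidal cells, 13 of 21 burst cells and 9 of 14 regular cells.

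The cDNA kit and the region changed together, with version 3 in CA1 cells and version 4 in subiculum cells, and these cannot be told apart. Subiculum cells also had more genes detected, and reads of 5 oligodendrocyte markers summed to 735 CPM in CA1 pyramidal cells, against 4174 CPM in burst and 1776 CPM in regular cells. Reads of 4 CA1 pyramidal markers summed to 934.5 CPM in CA1 pyramidal and 800.7 CPM in subiculum cells, with medians per cell of 367 and 722 CPM. This list thus did not separate the regions. Reads of 4 subiculum markers summed to 9.26 CPM in CA1 pyramidal and 200.8 CPM in subiculum cells. Of the 8 receptor genes 2 were higher and 4 lower in CA1 pyramidal than in subiculum cells, where 67.9% of 14200 genes were 2-fold apart, 22.1% higher and 45.7% lower. The 2 higher were Chrm4 and Chrna5, both carried by few CA1 cells (for Chrna5 the log2 ratio was 2.03, and 1.20 without the top cells), and the 4 lower were Chrm2, Chrm3, Chrna4 and Chrnb2.

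Among the CA1 interneurons Chrna4 was found in 2 of 14 PV and 2 of 19 CCK cells. A single cell held 94.3% of the PV reads and another 99.7% of the CCK reads, so the summed levels of 30.3 CPM in PV and 10.6 CPM in CCK cells describe 1 cell each. Among cells without spike-ins PV over CCK turned to −2.02 on the log2 scale, against 1.51 in all cells. Chrnb2 was found in 6 of 14 PV and 8 of 19 CCK cells, at 87.4 CPM in PV and 26.5 CPM in CCK cells (ratio 3.29, interval 3.10 to 3.50). Within the cells that held spike-ins the log2 ratio was −0.13 and within the others 2.90, against 1.72 over both and 0.83 without the top cells. The highest PV cell, at 497 CPM, had no Pvalb read. Without cells that lacked the markers of their label the log2 ratio was 0.96, under 2-fold. CCK over CA1 pyramidal cells was 7.16 (5.93 to 8.70), and with equal weight per cell it turned to −1.11 on the log2 scale, with the CA1 cell of 30025 reads included.

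Chrna5 was found in 0 of 14 PV cells, which allows up to 23.2% of cells with a read, in 3 of 19 CCK cells at 24.8 to 378 CPM and in 3 of 25 CA1 pyramidal cells at 6.75 to 433 CPM. PV cells, taken at 3 reads, were at least 162-fold lower than CCK cells in summed level. This is a log2 ratio of at most −7.34, and the bound was −6.25 without the top CCK cell, −5.94 among cells without spike-ins and −4.38 after thinning. Of the 14 PV cells 6 had no read of any of the 8 genes. In the subiculum it was found in 11 of 21 burst and 4 of 14 regular cells. Burst cells had 10.3 CPM and regular cells 4.18 CPM, a ratio of 2.47 (interval 1.88 to 3.28). Without the deepest cell of each type the log2 ratio was 0.44 and with equal weight per cell 0.10, against 1.304 for all summed reads. Chrna5 with both Chrna4 and Chrnb2 occurred in 8 of 21 burst and 3 of 14 regular cells and in no CA1 cell of any type.

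Chrna7 was found in 1 of 14 PV, 9 of 19 CCK, 3 of 25 CA1 pyramidal, 11 of 21 burst and 10 of 14 regular cells. The single PV cell had 50.03 CPM but no Pvalb read, and the positive CCK cells ranged from 0.44 to 833 CPM. Summed levels were 12.6 CPM in PV and 26.3 CPM in CCK cells, a ratio of 0.477 (interval 0.426 to 0.533), and 11.2 CPM in CA1 pyramidal cells. The log2 ratio of PV over CCK was −1.07, against −0.75 among cells with spike-ins. It was at most −7.00 without the top cells and at most −7.38 without cells that lacked the markers of their label. The PV level thus rests on 1 cell whose label its markers do not bear out. CCK over CA1 pyramidal cells was 2.35 (2.09 to 2.64), or 1.23 on the log2 scale, against 0.057 among cells with spike-ins and 3.17 after thinning. Burst and regular cells had 14.8 and 11.1 CPM and were not 2-fold apart.

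Over the 8 receptor genes, PV over CCK gave 4 higher and 3 lower, where 53.3% of 13133 genes were 2-fold apart, 22% higher and 31.3% lower. CCK over CA1 pyramidal cells gave 4 higher and 2 lower, where 62.7% of 13172 genes were 2-fold apart, 38.7% higher and 24% lower. PV over CA1 pyramidal cells gave 3 higher and 3 lower, where 65.3% of 12490 genes were 2-fold apart, 35.8% higher and 29.6% lower. Burst over regular cells gave 1 higher and 1 lower, where 27.3% of 14525 genes were 2-fold apart, 13.4% higher and 13.9% lower. The other 6 receptor genes had burst over regular ratios between 0.545 for Chrna4 and 1.34 for Chrna7. In thinned cells the median number of receptor genes with a read was 1 in PV, 2 in CCK and 1 in CA1 pyramidal cells, and 4 in burst and 4 in regular cells.

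Of the 43 other cholinergic genes, the 3 with the highest summed level among those 2-fold apart were Gnao1 and Gnai1, which encode G protein α subunits of the Gi/o class, and Ly6e. In summed level Gnao1 had 496 CPM in PV, 667 CPM in CCK and 459.5 CPM in CA1 pyramidal cells, against 157 CPM in subiculum cells. CA1 pyramidal over subiculum was 2.92 (interval 2.83 to 3.01). A single PV cell held 43.1% of the PV reads. Medians per cell were 72.5 CPM in PV, 450 CPM in CCK, 293 CPM in CA1 pyramidal and 147 CPM in subiculum cells, so PV cells were lowest at the median. Gnai1 had 272 CPM in PV and 68.1 CPM in CCK cells, a ratio of 3.99, though a single PV cell without a Pvalb read held 66.8% of the PV reads. It was found in 5 of 14 PV cells (median 0 CPM) and in 12 of 19 CCK cells (median 27.8 CPM), so the median went the other way. Ly6e had 75.9 CPM in PV cells and 219 CPM in CCK cells, a ratio of 0.346. Reads of Gi/o α subunits, the class that the receptors of Chrm2 and Chrm4 couple to, were thus found in every type. Gnao1 had a read in 11 of 14 PV, 17 of 19 CCK and 18 of 25 CA1 pyramidal cells.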

How the data were processed

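The authors deposited raw read counts per gene symbol as whole numbers. Among the tools in the submitters' processing notes are the aligner STAR and the counter HTSeq, and the builds are mm10 and hg19, without roles. Per the labels, the SMARTer kit was version 3 for cells of CA1 and version 4 for all other libraries. The 92 spike-in rows were left out of totals. Tissue counts were fitted with edgeR 4.0.16 in R 4.3.3 (filterByExpr, TMM, robust quasi-likelihood, all 15 libraries, one term per age), and p-values were adjusted by Benjamini and Hochberg over 14737 genes. The fit was tested on simulated data. Cells were summed per type, with Clopper-Pearson intervals (scipy 1.17.1). Replicates are called independent in the labels, but no animal is named. Counting intervals take reads as independent, which amplified cDNA without molecular identifiers does not ensure. Positions are from GENCODE M21 (GRCm38) and promoters from RefSeq GRCm38.p6. Named by rule were all 8 receptors, the 3 largest called changes each way among other cholinergic genes of at least 5 CPM at some age, the 3 of highest summed level in cells, and the 2 genes most correlated with each receptor. 1 further gene of the cholinergic lists was left out and is not reported here. The members and lists were chosen with earlier results of these data known. Alternatives were DESeq2 1.42.0, RLE scaling, a replicate block, thinning, no filter, only the 6 libraries of a contrast and left-out libraries. In cells they were equal weights, thinning to 200000 reads, left-out cells, at least 5 reads per cell, and, added after seeing the data, subsets by detected genes, markers and spike-ins.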

Additional observations from a re-analysis of the deposited data

How the results depend on the processing

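In tissue the called changes of P28 against P0 kept their direction and their side of the threshold under RLE scaling, DESeq2, no filter, thinning, the replicate block, the 6 libraries alone and each left-out library. Their log2 fold changes with 1 library left out ran from 1.80 to 1.86 for Chrm1, 1.13 to 1.51 for Chrm2, 0.91 to 1.27 for Chrm3, 2.13 to 2.40 for Chrm4, 0.62 to 0.90 for Chrna4 and −1.38 to −1.05 for Chrna5. Differences near 0 that were not called changed sign: Chrna7 at P28 against P0 was 9.53e-04 with the replicate block and −0.075 to 0.071 with 1 library left out, Chrnb2 was 0.0071 after thinning and −0.065 to 0.0090 with 1 left out, and Chrnb2 at P14 against P7 was −0.050 to 0.113 with 1 left out. Replicates with the same number did not deviate together (correlations of −0.27 to 0.16), and the block changed no call of a receptor gene. Thinning to 2341677 reads per library, the depth of the smallest, gave 1 call at P21 against P14, Chrna7 (−0.75, adjusted p = 0.0185), gained Chrm2 at P7 against P0 (1.33, adjusted p = 0.0317), and lost Chrm3 at P7 against P0 (adjusted p = 0.0954) and Chrm2 and Chrna7 at P14 against P7 (0.325 and 0.0508). Without a filter Chrna7 was not called over the ages (0.0688), and with the 6 libraries alone Chrm2 at P14 against P7 was not (0.0573). In cells the ratios of called genes that changed sign were PV over CCK of Chrna4 without spike-ins (−2.02) and of Chrnb2 with spike-ins (−0.13), and with equal weight per cell Chrnb2 for CCK over CA1 pyramidal cells (−1.11) and for CA1 pyramidal over subiculum cells (0.17). Without the top cell of each type 3 receptor genes were 2-fold apart for CCK over CA1 pyramidal cells, and after thinning cells or with equal weights 1 was for burst over regular cells. The causes were not tested. Depth limits the rest, and 14 to 25 cells per type leave wide intervals on any share. For a gene with no read in a type, the limit of 3 reads over the type was 0.0984 CPM in PV and 0.0951 CPM in CA1 pyramidal cells. This limit covers the depth of the summed reads only. It is no upper bound on the true level, since 6 of 14 PV and 6 of 25 CA1 pyramidal cells had no read of any receptor gene.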
